A study of Mus musculus with 24 samples.

Results

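The 8 naive libraries of a 24-library mouse series are described here through 1 contrast, the PU.1 by SpiB interaction. Resting B cells of the lymph node were sequenced from 4 genotypes with 2 biological replicates each, and for every gene the log2 level in PU.1 SpiB DKO was set against PU.1 cKO plus SpiB KO minus Control. The contrast is 0 when the effects of the single losses add up to the effect of the double loss on the log2 scale. All 8 naive libraries entered, and the 16 libraries of B cells cultured with CD40L + IL-4 or LPS + IL-4 were used only where a departure was looked up again in culture.

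The labels give C57BL/6 for every library. The libraries labelled PU.1 cKO go against that label at the H2 complex: H2-Ea-ps, a class II gene that C57BL/6 mice do not transcribe, was at 1143 to 2764 CPM (counts scaled to the library's effective size) in the 6 PU.1 cKO libraries of naive and cultured cells and at 0 to 3.33 in the 18 others. The genetic background of the PU.1 cKO mice at and beyond H2 cannot be told apart from the loss of PU.1. Control mice were Cd23T/+, carrying a Cd23-Cre transgene that is active in maturing B cells and no floxed allele. PU.1 cKO mice were Spi1fl/fl Cd23T/+. SpiB KO mice had the genotype Spi1fl/fl Cd23+/+ Spib-/-. The double mutants, PU.1 SpiB DKO, had Spi1fl/fl Cd23T/+ with Spib-/-. Spi1 loss was therefore conditional, in B cells from a late stage of their development, whereas Spib loss was germline and affected every cell that uses the gene. SpiB KO was the only group without Cre, and Control the only group without floxed Spi1 alleles, so an effect of Cre itself or of the floxed alleles enters the contrast and cannot be told apart from the interaction. The study states that excision of Spi1 was incomplete in naive DKO B cells. The cells were sorted as CD3- B220+ CD138-. No age was given per library, and Xist and Ddx3y were counted in all 8 libraries, at 30.0 to 140.0 and 22.2 to 68.5 CPM.

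PU.1, encoded by Spi1, and SpiB, encoded by Spib, are Ets family transcription factors that bind the same purine-rich core, GGAA, often beside an IRF partner, and activate genes of B cells and myeloid cells. In B cells they can occupy the same sites, so the loss of either may be covered by the other. Where cover is mutual, the double loss goes beyond the sum of the single losses. Where a gene already sits at its floor or ceiling after a single loss, the double loss falls short of the sum.

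Among the genes whose double loss departed upward from the sum, a few carried a canonical PU.1 site or an Ets-IRF composite in the promoter. The following promoters, 250 bases before to 50 after the start site (RefSeq, GRCm38.p6, read along the gene), are shown because they belong to genes that were low in PU.1 cKO and higher again in DKO. Capitals mark the PU.1 site GAGGAAGT in Kmo, Pirb and Pld4, and an Ets-IRF composite (GGAA, any 2 bases, GAAA) in Hpse.
Kmo, chr1:175631943-175632242, plus strand: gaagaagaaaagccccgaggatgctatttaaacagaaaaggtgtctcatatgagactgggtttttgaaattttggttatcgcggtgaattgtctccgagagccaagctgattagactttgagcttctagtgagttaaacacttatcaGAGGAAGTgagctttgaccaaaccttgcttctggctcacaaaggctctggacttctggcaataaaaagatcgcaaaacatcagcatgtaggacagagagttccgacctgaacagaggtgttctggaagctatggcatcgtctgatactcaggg
Pirb, chr7:3720333-3720632, minus strand: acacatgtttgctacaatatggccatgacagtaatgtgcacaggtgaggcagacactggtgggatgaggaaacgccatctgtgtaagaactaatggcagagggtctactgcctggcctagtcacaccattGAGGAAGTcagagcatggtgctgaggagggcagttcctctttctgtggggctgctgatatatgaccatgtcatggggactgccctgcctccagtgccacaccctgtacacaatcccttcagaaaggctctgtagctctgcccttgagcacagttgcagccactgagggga
Pld4, chr12:112760405-112760704, plus strand: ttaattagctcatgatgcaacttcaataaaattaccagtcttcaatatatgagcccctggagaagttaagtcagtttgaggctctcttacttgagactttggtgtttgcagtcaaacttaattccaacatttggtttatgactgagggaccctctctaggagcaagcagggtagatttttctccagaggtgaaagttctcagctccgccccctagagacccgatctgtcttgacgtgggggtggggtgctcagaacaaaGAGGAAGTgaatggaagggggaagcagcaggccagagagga
Hpse, chr5:100719667-100719966, minus strand: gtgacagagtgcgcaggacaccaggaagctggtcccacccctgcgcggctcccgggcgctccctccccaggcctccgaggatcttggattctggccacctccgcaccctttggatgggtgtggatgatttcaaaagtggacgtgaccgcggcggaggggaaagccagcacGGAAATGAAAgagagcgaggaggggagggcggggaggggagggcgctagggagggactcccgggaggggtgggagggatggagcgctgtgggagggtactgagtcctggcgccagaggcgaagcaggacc
Searched on both strands, GAGGAAGT lay in the promoter of 4 of 46 genes above the sum (8.7%), of 1 of 29 below it (3.45%), and of 3.95% of the 9466 tested genes with a promoter sequence. The Ets-IRF composite lay in 4 of 46 (8.7%), 0 of 29 and 2.97%. These shares describe letters in a window and say nothing of binding.

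The deleted genes were read first. Spib was at 1472 and 1354 CPM in Control, with 85.6 and 80.2 for SpiB KO, 2175 and 1922 for PU.1 cKO and 98.8 and 100.3 for DKO. SpiB KO and DKO libraries lay far below the other 4, and the interaction of Spib was -0.27 ± 0.16 (log2, ± SE; edgeR quasi-likelihood test, Benjamini-Hochberg adjusted p = 0.572). Spi1 (chr2:91082374-91115759) was at 155 and 174 CPM in Control, with 163 and 163 for SpiB KO, 59.5 and 53.2 for PU.1 cKO and 103 and 110.1 for DKO. The DKO libraries thus lay between PU.1 cKO and Control without overlap: Spi1 fell by 1.54 in PU.1 cKO and by 0.63 in DKO on the log2 scale, so 59.4% of the log2 fall in PU.1 cKO was absent in DKO. Spi1 itself departed upward from the sum (interaction 0.93 ± 0.16, adjusted p = 0.0486), but not without PU.1 cKO 2 (adjusted p = 0.274), SpiB KO 1 (0.261), SpiB KO 2 (0.213) or DKO 2 (0.176). The counts are per gene, and reads of the floxed exon cannot be told apart from those of the rest of Spi1. Every departure below is read beside this unequal Spi1 level, and the part of it in each departure was not tested.

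The libraries held 14231188 to 18194629 counts (median 15997850), and replicates correlated at 0.98 to 0.989. The B cell gene Ms4a1 was at 1541 to 3091 CPM in all 8 libraries, Cd3e stayed at or below 0.632 and S100a8 at or below 0.162. Markers of plasmacytoid dendritic cells (14 genes) summed to 2152 to 2770 CPM in Control and PU.1 cKO and to 4727 to 5611 in SpiB KO and DKO. T cell markers (14 genes) summed to 136 and 88.9 CPM in Control, with 541 and 456 for SpiB KO, 208 and 209 for PU.1 cKO and 735 and 727 for DKO. In bulk RNA, fewer cells of a type and less RNA per cell cannot be told apart. Control 1 held 38276 CPM of Rn45s, a ribosomal RNA precursor, against 1876 to 5877 in the other libraries.

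A departure from the sum was called for 117 of 12500 genes tested (0.936%; adjusted p below 0.15). DKO lay above the sum for 57 genes (0.456%) and below it for 60 (0.48%), and 1416 genes had an unadjusted p below 0.05. Over all genes tested the interaction was centred at a median of 0.00 (0.00392), with 50.5% of genes positive. The called departures were large, with a median absolute size of 1.55 and a range from 0.67 to 13.78 on the log2 scale, against a median SE of 0.257 over all genes. At adjusted p below 0.05, 41 genes passed, 16 above and 25 below. Without the H2 stretch of chromosome 17 described further on, 105 calls were left, 57 above and 48 below.

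The number of calls depended on single libraries. It was 1041 without Control 1, 221 without Control 2, 48 without PU.1 cKO 1, 38 without PU.1 cKO 2, 35 without SpiB KO 1, 44 without SpiB KO 2, 66 without DKO 1 and 45 without DKO 2. Every called gene that had a value kept its sign in each of these 8 fits. The genes were called for large departures in these same libraries, and each fit dropped only 1. The kept signs are therefore a description. In all 8 fits 25 genes stayed called. The 10 above the sum were Bmyc, Clec12a, Cyp27a1, Fyn, Gsn, Islr2, Kmo, Lrrc16a, Nfam1 and Nid1, and the 15 below were Enpp4, Gdpd3, Gm11127, Gm20568, Gm8909, H2-Ea-ps, H2-K2, H2-Q1, H2-Q10, H2-Q2, H2-Q4, H2-Q6, Kbtbd11, LOC68395 and Rps15a-ps8. These genes were singled out after their values were seen. Every other called gene, also where this is not repeated below, lost its call in at least 1 of these fits.

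**Figure D1:**
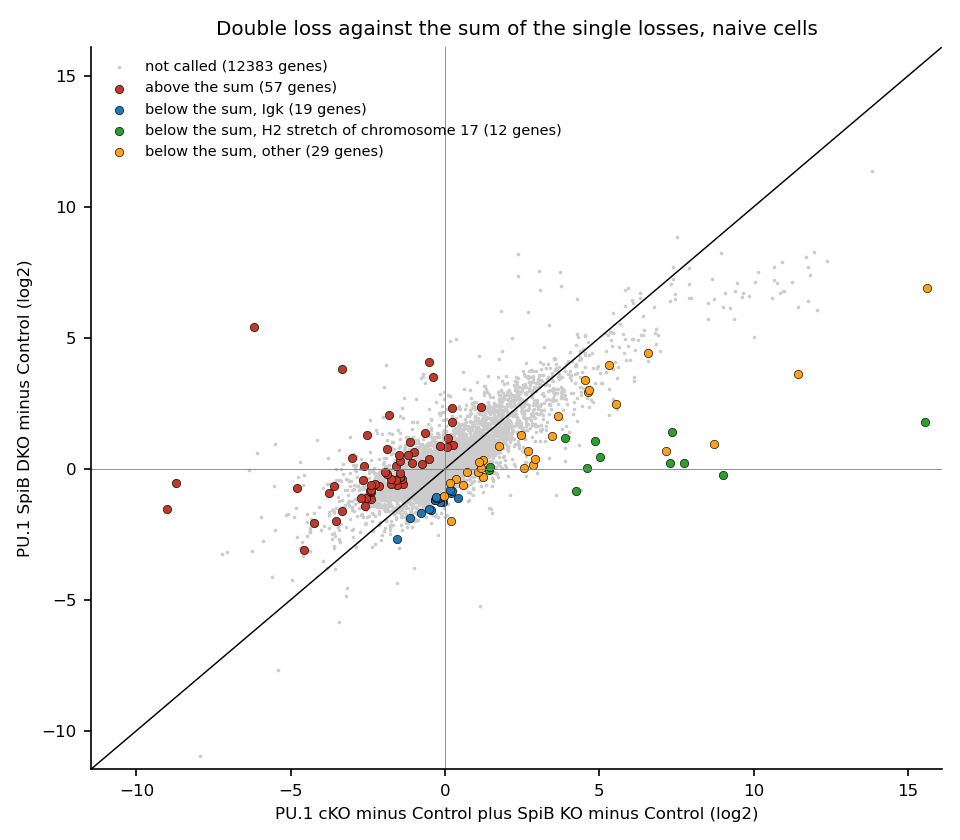
Each point is a gene, with the sum of the PU.1 cKO and SpiB KO differences from Control on the x axis and the DKO difference on the y axis (both log2); the line marks equality. The 57 genes above the line are red, and of the 60 below it 19 are Igk genes (blue), 12 lie in the H2 stretch of chromosome 17 (green) and 29 are others (orange); uncalled genes at the far right have Control levels near 0.

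Most genes above the sum had gone down with PU.1 alone and returned towards Control when SpiB was lost as well. Of the 57, 51 were called lower in PU.1 cKO than in Control, at adjusted p below 0.15 and a fold above 1.5. Among all 12500 genes, 819 were called lower there. The DKO estimate was above the PU.1 cKO estimate in all 51. DKO was called higher than PU.1 cKO for 45, by 0.62 to 7.09 on the log2 scale. Of all genes 12.9% were called between DKO and PU.1 cKO, in either direction. Over the 51 genes the median difference from Control was -0.14 for SpiB KO, -1.87 for PU.1 cKO and -0.38 for DKO. The contrast itself contains PU.1 cKO with a minus sign, so a low PU.1 cKO level in genes called above the sum is a description. Both PU.1 cKO libraries lay under the other 6 for 47 of the 51. DKO was not called against Control for 23 of them, lower for 17 and higher for 11 (21.2% of all genes were called in DKO). For 34 of the 51 SpiB KO was not called either (9.62% of all genes were called in SpiB KO).

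Among all genes called lower in PU.1 cKO, few had a called interaction. Of 819 genes called lower in PU.1 cKO, 51 had a called interaction, all upward, while 435 were also called lower in DKO and 384 were not. Their median difference from Control was -0.96 in PU.1 cKO and -0.66 in DKO. Of 523 genes called higher in PU.1 cKO, 37 had a called interaction, all downward. PU.1 cKO enters the contrast with a minus sign, so both directions follow in part from the selection and are a description.

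Several genes above the sum with ties to the actin skeleton were picked after their values were seen, except Lrrc16a, which the naming rule chose. No list of such genes was tested. Gsn, which encodes the actin-severing protein gelsolin, was at 226 and 235 CPM in Control, with 264 and 252 for SpiB KO, 56.5 and 55.7 for PU.1 cKO and 199.6 and 203 for DKO. Both PU.1 cKO libraries were low, and both DKO libraries lay just under Control (interaction 1.68 ± 0.13, adjusted p = 0.000404). Lrrc16a, a regulator of actin filament capping, was at 11 and 8.96 CPM in Control, with 10.3 and 12.4 for SpiB KO, 3.25 and 3.03 for PU.1 cKO and 13.4 and 15.5 for DKO. Its DKO libraries lay above Control and far above PU.1 cKO (interaction 2.01 ± 0.29, adjusted p = 0.0224). Plek, which encodes the protein kinase C substrate pleckstrin, was at 419 and 356 CPM in Control, with 332 and 387 for SpiB KO, 147 and 129 for PU.1 cKO and 266 and 307 for DKO (interaction 1.16 ± 0.19, adjusted p = 0.0442). Plek fell in PU.1 cKO and lay between the groups in DKO. Its call was lost without PU.1 cKO 2, SpiB KO 1 or DKO 2 (adjusted p up to 0.266). The integrin gene Itgb3 (interaction 1.36, adjusted p = 0.119) and the myosin gene Myo1f (1.76, adjusted p = 0.125) departed in the same direction.

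Kmo, Cyp27a1, Nid1 and Hpse, genes of metabolism and matrix, were also low in PU.1 cKO and higher in DKO. Kmo, the kynurenine 3-monooxygenase of tryptophan breakdown, was at 225 and 186 CPM in Control, with 248 and 235 for SpiB KO, 50.3 and 40.2 for PU.1 cKO and 198 and 179 for DKO (interaction 1.82 ± 0.20, adjusted p = 0.00375). Its PU.1 cKO libraries lay far under the other 6, DKO overlapped Control, and SpiB KO was highest. Cyp27a1, the mitochondrial sterol 27-hydroxylase, was at 6.37 and 8.67 CPM in Control, with 9.75 and 11.2 for SpiB KO, 0.828 and 0.505 for PU.1 cKO and 10.5 and 9.74 for DKO (interaction 3.44 ± 0.39, adjusted p = 0.00493). Its DKO libraries lay with SpiB KO, above both Control libraries. Nid1, which encodes the basement membrane protein nidogen, was at 22.2 and 23.7 CPM in Control, with 15.3 and 15.5 for SpiB KO, 3.12 and 2.46 for PU.1 cKO and 16 and 13.4 for DKO (interaction 2.97 ± 0.26, adjusted p = 0.000702). The DKO and SpiB KO libraries of Nid1 overlapped. Hpse, the heparan sulphate cleaving heparanase, was at 59.7 and 42.3 CPM in Control, with 66.1 and 73.7 for SpiB KO, 19.5 and 17.3 for PU.1 cKO and 78.6 and 78.6 for DKO (interaction 1.64 ± 0.24, adjusted p = 0.0224). DKO was the highest group for Hpse, and the call was lost without PU.1 cKO 2 or SpiB KO 1 (adjusted p up to 0.154).

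The receptor genes Nfam1 and Pirb and the Myc relative Bmyc lay between PU.1 cKO and Control in DKO. Nfam1, an ITAM-bearing receptor that activates NFAT, was at 47.1 and 52.2 CPM in Control, with 40.8 and 31.3 for SpiB KO, 4.97 and 5.18 for PU.1 cKO and 26.4 and 26.2 for DKO. It fell by 3.29 in PU.1 cKO and by 0.92 in DKO on the log2 scale (interaction 2.83 ± 0.23, adjusted p = 0.000457). Bmyc, a relative of Myc, was at 103 and 99.5 CPM in Control, with 90.8 and 85.4 for SpiB KO, 20.5 and 18.7 for PU.1 cKO and 46.4 and 46.8 for DKO (interaction 1.45 ± 0.16, adjusted p = 0.00387). Both genes stayed below Control in DKO. Pirb, a paired inhibitory receptor for MHC class I, was at 15.3 and 17.3 CPM in Control, with 10.8 and 12.4 for SpiB KO, 4.07 and 4.48 for PU.1 cKO and 9.9 and 7.74 for DKO (interaction 1.53 ± 0.28, adjusted p = 0.0764). The call of Pirb was lost without any of PU.1 cKO 1, PU.1 cKO 2, SpiB KO 1, SpiB KO 2 or DKO 1 (adjusted p 0.184 to 0.341). Il6ra, the interleukin 6 receptor, fell in all 3 mutants, from 14.1 and 18.1 CPM in Control to 5.47 and 7.44 for SpiB KO, 3.57 and 3.41 for PU.1 cKO and 3.63 and 4.48 for DKO. Its DKO level was no lower than PU.1 cKO, and the interaction of 1.54 ± 0.35 (adjusted p = 0.148) was lost in every fit that left out a library other than Control 1 (adjusted p 0.184 to 0.462).

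Dennd4a, Nxpe2, Srrm2, Alcam and Plbd1 were also called lower in all 3 mutants with the DKO above the sum. As in all 51 genes, their DKO estimates lay above those of PU.1 cKO, by 0.57 for Dennd4a, 0.81 for Alcam and 1.22 for Plbd1 (log2). Nxpe2 was at 35.6 and 43.7 CPM in Control, with 15.6 and 15.4 for SpiB KO, 5.22 and 3.35 for PU.1 cKO and 4.18 and 5.11 for DKO (interaction 1.48 ± 0.32, adjusted p = 0.124). Its DKO and PU.1 cKO libraries overlapped. The Control replicates of Srrm2, a splicing factor gene, stood far apart at 214 and 375 CPM.

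**Figure D2:**
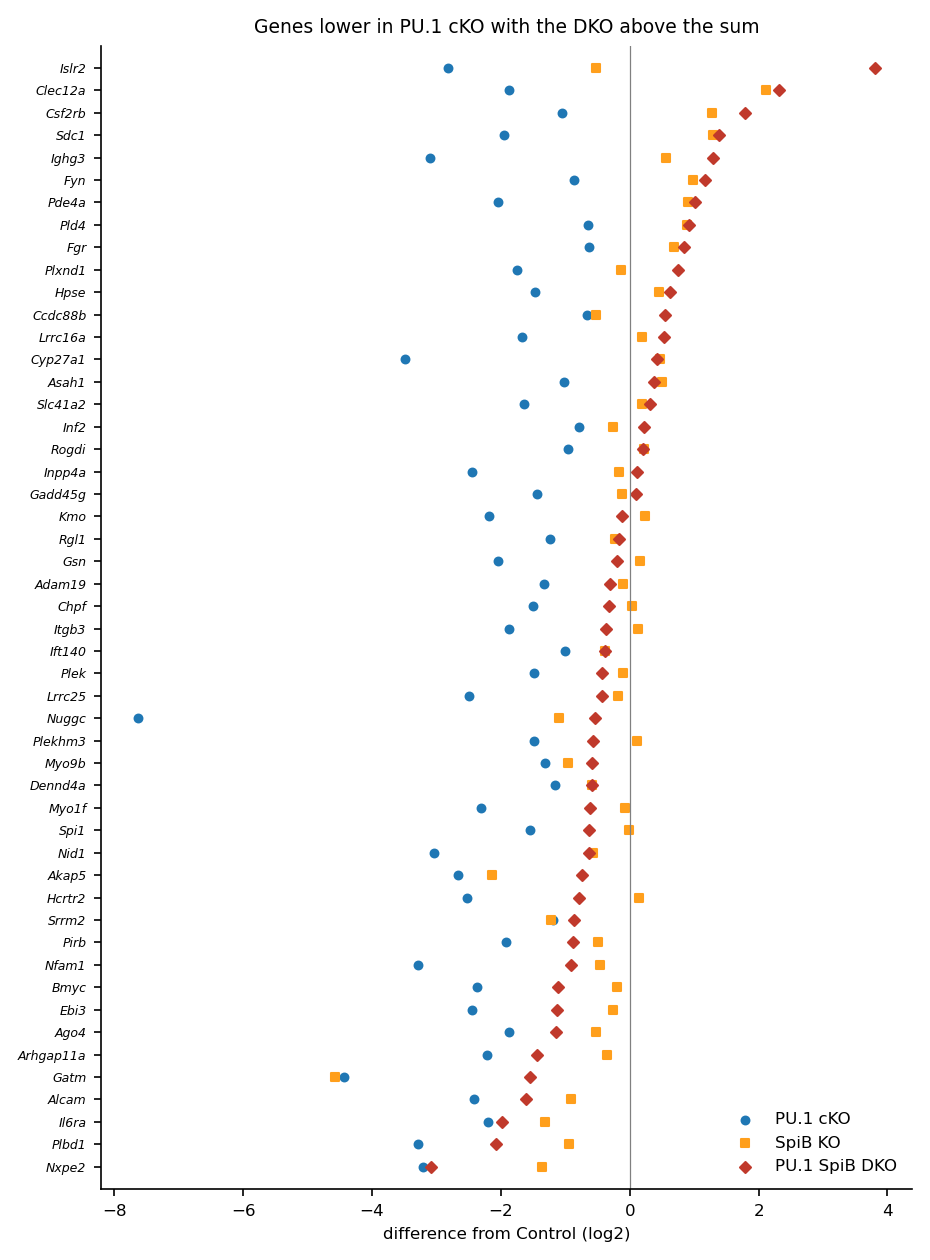
Log2 difference from Control in PU.1 cKO (circles), SpiB KO (squares) and DKO (diamonds) for 50 of the 51 genes called lower in PU.1 cKO with the DKO above the sum, sorted by the DKO value. The DKO diamond lies to the right of the PU.1 cKO circle in all 50 rows; Islr2, Nuggc and Gatm have genotypes with almost no counts, where the fitted value depends on the prior count.

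In 7 of the 51 genes the single losses pulled in opposite directions and DKO followed SpiB KO. Pld4, Fgr, Fyn, Csf2rb, Sdc1, Clec12a and Pde4a fell in PU.1 cKO and rose in both SpiB-deficient genotypes. Clec12a, an inhibitory C-type lectin receptor, was at 27.5 and 19.8 CPM in Control, with 112 and 92.5 for SpiB KO, 5.86 and 7.07 for PU.1 cKO and 123 and 114 for DKO (interaction 2.08 ± 0.26, adjusted p = 0.00826). Fyn, a Src family kinase, was at 75.8 and 77.7 CPM in Control, with 144 and 160.1 for SpiB KO, 41.6 and 42.2 for PU.1 cKO and 169 and 177 for DKO (interaction 1.06 ± 0.15, adjusted p = 0.0172). In both genes the DKO libraries lay above both SpiB KO libraries, so the fall seen in PU.1 cKO had no counterpart on the SpiB-deficient background. Sdc1, which encodes CD138, the antigen excluded in the sort, was at 17.9 and 11.2 CPM in Control, with 37.9 and 33.1 for SpiB KO, 3.5 and 3.98 for PU.1 cKO and 41.2 and 34.5 for DKO (interaction 2.05 ± 0.32, adjusted p = 0.0359). The Sdc1 call was lost without PU.1 cKO 1, PU.1 cKO 2 or SpiB KO 2 (adjusted p 0.159 to 0.193). Csf2rb, the shared beta chain of the receptors for IL-3, IL-5 and GM-CSF, was at 14.8 and 11.4 CPM in Control, with 29.4 and 34 for SpiB KO, 5.35 and 7.32 for PU.1 cKO and 44.8 and 45.1 for DKO (interaction 1.55 ± 0.27, adjusted p = 0.0621). Ptprs, a receptor tyrosine phosphatase, was called higher in SpiB KO and DKO alone, at 7.49 and 7.96 CPM in Control, with 24.4 and 27.1 for SpiB KO, 5.09 and 5.37 for PU.1 cKO and 34.3 and 45.8 for DKO. Siglech, a receptor of plasmacytoid dendritic cells, moved in the same libraries, at 57.2 and 23.9 CPM in Control, with 237 and 199.8 for SpiB KO, 33.3 and 39.9 for PU.1 cKO and 267 and 229 for DKO. The part of such cells in these departures was not tested. None of the 14 marker genes of these cells was called by edgeR, although all 14 interactions were positive (median 0.35; 1 at an unadjusted p below 0.05, 0 by DESeq2 and 0 by limma voom).

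For 5 genes DKO alone rose while neither single loss was called: Ndrg1, Gzmm, I830127L07Rik, Styk1 and Chl1. Styk1, a kinase-like membrane protein, was at 1.47 and 0.853 CPM in Control, with 1.25 and 0.701 for SpiB KO, 1.46 and 0.505 for PU.1 cKO and 15.7 and 23.4 for DKO (interaction 4.57 ± 0.71, adjusted p = 0.0359). Only the DKO libraries carried more than a trace of it, and the call was lost without SpiB KO 2 (adjusted p = 0.151). Gzmm, the cytotoxic protease granzyme M, was at 0.238 to 0.853 CPM in the other 6 libraries and at 3.81 and 3.27 in DKO. Ndrg1, a gene induced by cell stress, was at 24 and 21 CPM in Control, with 17.3 and 14.2 for SpiB KO, 29.5 and 27.5 for PU.1 cKO and 41.2 and 41.6 for DKO (interaction 1.05 ± 0.21, adjusted p = 0.104). Chl1, a neural cell adhesion molecule, was at 4.12 and 8.43 CPM in DKO and at or below 0.142 elsewhere, and Islr2 at 6.82 and 7.22 CPM in DKO and at or below 0.64 elsewhere, counts too low for a fold. The calls of Ndrg1, Gzmm and Chl1 held in 2, 3 and 1 of the fits that left out a library (8 fits gave a value for Ndrg1 and Gzmm, and 6 for Chl1). NK cell markers, among which cytotoxic proteases are usual, summed to 151 and 75.8 CPM in Control, with 219 and 151 for SpiB KO, 173 and 77.1 for PU.1 cKO and 290.2 and 198 for DKO, and their part in the Gzmm level was not tested.

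**Figure D3:**
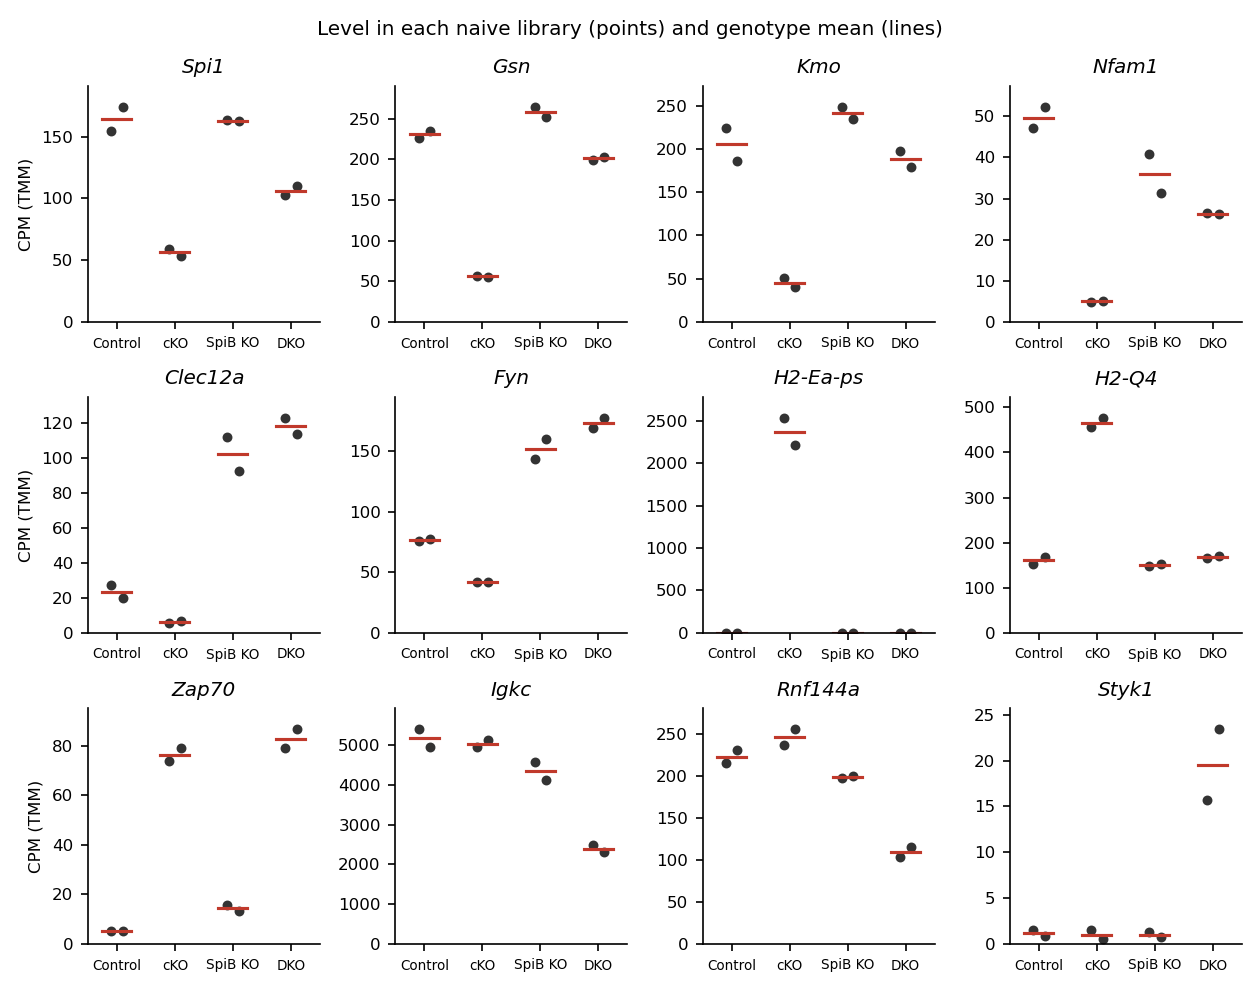
CPM of 12 genes in each of the 8 naive libraries (points) with the mean of each genotype (line); every axis starts at 0 and has its own scale. Spi1, Gsn, Kmo and Nfam1 are low in PU.1 cKO and higher in DKO; Clec12a and Fyn are high in SpiB KO and DKO; H2-Ea-ps and H2-Q4 are high in PU.1 cKO alone; Zap70 is high in PU.1 cKO and DKO; Igkc and Rnf144a are low in DKO alone; and Styk1 is high in DKO alone.

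Among the 60 genes below the sum, 37 were called higher in PU.1 cKO than in Control, against 523 of all 12500 genes. PU.1 cKO enters the contrast with a minus sign, so this is a description. The most extreme lay in the H2 complex of chromosome 17, which encodes MHC molecules. From H2-K2 to H2-M2 (chr17:33974659-37483554, GRCm38), a stretch delimited after the values were seen, 12 of 117 genes tested were called (10.3%), all below the sum. The remainder of chromosome 17 had 9 of 532 (1.69%). The 12 were H2-Ea-ps, H2-M2, H2-Q1, H2-Q2, H2-Q4, H2-Q6, H2-Q10, H2-K2, Gm8909, Gm10499, Gm11127 and Sapcd1. In all 12 both PU.1 cKO libraries lay above the other 6.

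H2-Ea-ps, which encodes an MHC class II alpha chain, was at 0.21 and 0.142 CPM in Control, with 0.535 and 0.809 for SpiB KO, 2527 and 2216 for PU.1 cKO and 0.369 and 0.843 for DKO (interaction -13.78 ± 0.69, adjusted p = 2.15e-05). Outside PU.1 cKO its level stayed below 1 CPM. H2-Q10, a class I gene, was at 1.05 and 1.07 CPM in Control, with 1.43 and 1.24 for SpiB KO, 132 and 145 for PU.1 cKO and 3.2 and 2.53 for DKO. H2-K2 was at 6.16 and 7.39 CPM in Control, with 5.29 and 3.45 for SpiB KO, 198 and 205 for PU.1 cKO and 3.69 and 3.9 for DKO. Neither gene came near its PU.1 cKO level in DKO. H2-Q4 was at 153 and 168 CPM in Control, with 149 and 153 for SpiB KO, 457 and 475 for PU.1 cKO and 165 and 170.1 for DKO (interaction -1.39 ± 0.14, adjusted p = 0.00246), the smallest of the 12 departures. H2-M2 was at 10 and 10.7 CPM in PU.1 cKO and at or below 0.108 elsewhere. The interactions of the classical genes H2-Aa (-0.13, adjusted p = 0.853), H2-Ab1 (0.06, adjusted p = 0.925) and H2-K1 (0.16, adjusted p = 0.763) were not called, and the median interaction of the 117 genes was 0.01. In 10 of the 12, H2-M2 and Sapcd1 excepted, all 6 PU.1 cKO libraries of naive and cultured cells lay above all 18 other libraries. For H2-Ea-ps these ranges were 1143 to 2764 CPM against 0 to 3.33. These values go against the C57BL/6 label of the PU.1 cKO mice, whose H2 haplotype is not given in the sources used here, and a difference in haplotype cannot be told apart from an effect of PU.1 loss in these 12 departures. H2 genes are close copies of each other, and how uniquely mapped reads fell among them is uncertain.

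Other genes were high in PU.1 cKO alone. Rps15a-ps8 was at 0.49 and 0.569 CPM in Control, with 0.654 and 0.593 for SpiB KO, 64.7 and 67.4 for PU.1 cKO and 1.41 and 0.369 for DKO. It is a copy of a ribosomal protein gene and may share reads with it. Gprc5b, an orphan G protein-coupled receptor, was at 11.2 and 18.4 CPM in PU.1 cKO and at or below 0.861 elsewhere. Gm8815, Gm20568, Gm8841 and LOC68395, for which no position was given, had the same pattern, and LOC68395 was at 17.2 and 24.3 CPM in Control, with 24.2 and 19.4 for SpiB KO, 117 and 118 for PU.1 cKO and 26 and 16.3 for DKO. Smaller departures of this kind were those of Spns2, a sphingosine 1-phosphate transporter (-1.11 ± 0.18, adjusted p = 0.0419), and Glo1, a glyoxalase that clears methylglyoxal (-0.92 ± 0.19, adjusted p = 0.108). For Rps15a-ps8, Gprc5b, Gm8815, Gm20568, LOC68395 and Glo1 all 6 PU.1 cKO libraries of naive and cultured cells lay above all 18 others. This was not so for Gm8841 or Spns2. As at H2, the genetic background of the PU.1 cKO mice cannot be told apart from PU.1 loss in these departures. Outside the H2 stretch, 25 genes were high in PU.1 cKO and below the sum.

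In 10 genes each single loss raised the level and the double loss raised it less than the sum: H2-Ea-ps, Gdpd3, Enpp4, Gad1, Nacc2, Bhlha15, 1700028I16Rik, Zap70, Wnt10a and Ap1m2. H2-Ea-ps entered this group at levels below 1 CPM in SpiB KO and DKO. The median DKO difference from Control was 2.97. Gdpd3, a lysophospholipase D, was at 0.42 and 0.142 CPM in Control, with 29.1 and 29.2 for SpiB KO, 147 and 141 for PU.1 cKO and 25.7 and 43.7 for DKO (interaction -8.70 ± 0.46, adjusted p = 2.15e-05). DKO lay with SpiB KO and far under PU.1 cKO. Zap70, a kinase of T cell receptor signalling, was at 5.39 and 5.12 CPM in Control, with 15.6 and 13.4 for SpiB KO, 73.8 and 79.1 for PU.1 cKO and 79.4 and 86.7 for DKO. DKO lay just above PU.1 cKO, by a log2 difference of 0.12 that did not pass (adjusted p = 0.658), and SpiB KO stood between Control and both (interaction -1.34 ± 0.20, adjusted p = 0.0248, and 0.159 without PU.1 cKO 2). Of 13 T cell markers, Zap70 included, 11 were called higher in DKO, 7 in SpiB KO and 2 in PU.1 cKO. The shares of all genes called there, in either direction, were 21.2%, 9.62% and 10.7%. Yet Cd3d was at most 1.23 CPM and Cd3e at most 0.632, and the part of T cells in the Zap70 level was not tested. Bhlha15, the plasma cell transcription factor Mist1, was at 1.82 and 1.92 CPM in Control, with 9.87 and 9.7 for SpiB KO, 9.55 and 8.15 for PU.1 cKO and 14.5 and 14.1 for DKO (interaction -1.69 ± 0.28, adjusted p = 0.0442). Its DKO libraries were highest, yet short of the sum, and the call was lost without PU.1 cKO 1, SpiB KO 1, SpiB KO 2 or DKO 2 (adjusted p 0.164 to 0.218). Wnt10a, a secreted Wnt ligand, was at 3.43 and 4.26 CPM in Control, with 12.5 and 13 for SpiB KO, 30.1 and 24.5 for PU.1 cKO and 39.2 and 41.3 for DKO (interaction -1.17 ± 0.24, adjusted p = 0.112). Enpp4 was at 2.52 and 1.92 CPM in Control, with 11.4 and 9.49 for SpiB KO, 21.1 and 23.6 for PU.1 cKO and 15.2 and 9.8 for DKO (interaction -3.07 ± 0.36, adjusted p = 0.00603).

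The kappa light chain locus held a group of genes that were low in DKO beyond what either single loss showed. Of 106 Igk genes tested, 19 were called below the sum (17.9%), and 104 had a negative interaction, with a median of -0.77. The median difference from Control was -0.29 for SpiB KO, -0.06 for PU.1 cKO and -1.11 for DKO. Lower levels were called for 84 Igk genes in DKO, 18 in SpiB KO and 1 in PU.1 cKO. Over all genes 21.2%, 9.62% and 10.7% were called in these comparisons, in either direction. Igkc, the kappa constant region (chr6:70726435-70726754), was at 5399 and 4947 CPM in Control, with 4568 and 4131 for SpiB KO, 4962 and 5128 for PU.1 cKO and 2487 and 2313 for DKO (interaction -0.82 ± 0.17, adjusted p = 0.108). Both DKO libraries lay under the other 6 for all 19 called genes. DKO enters the contrast that called these genes below the sum, so this is a description. Igkv6-15 was at 161 and 155 CPM in Control, with 109.7 and 96.4 for SpiB KO, 140.4 and 141 for PU.1 cKO and 50.5 and 48.4 for DKO (interaction -0.89 ± 0.15, adjusted p = 0.0486). The 19 calls were fragile: 19, 16, 0, 0, 0, 4, 7 and 0 remained without Control 1, Control 2, PU.1 cKO 1, PU.1 cKO 2, SpiB KO 1, SpiB KO 2, DKO 1 and DKO 2, while their median interaction stayed between -1.14 and -0.86.

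In the other immunoglobulin loci no gene was called. None of 9 Igl genes tested was called by edgeR (1 at an unadjusted p below 0.05, 0 by DESeq2 and by limma voom), with 8 of 9 interactions negative, a median of -0.24 and a median DKO difference of 0.41. Whether Igl differed from Igk was not tested. None of 94 Ighv genes was called by edgeR (2 at an unadjusted p below 0.05, 0 by DESeq2 and by limma voom), with medians of 0.02 and -0.36. Summed over the locus, Igk took 10312 and 8982 CPM in Control, with 8486 and 7571 for SpiB KO, 9376 and 9532 for PU.1 cKO and 4668 and 4211 for DKO. Igl took 2241 and 1705, 2733 and 2290, 2471 and 2090, and 2620 and 2333 CPM in the same order. The ratio of the sums was lowest for DKO at 1.78 and 1.80, followed by SpiB KO at 3.11 and 3.31, PU.1 cKO at 3.79 and 4.56 and Control at 4.60 and 5.27. The DKO ratios lay below all others without overlap. These sets were formed after the values were seen, V genes share near-identical stretches, and the 19 genes belong to 1 locus read in 2 DKO libraries.

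**Figure D4:**
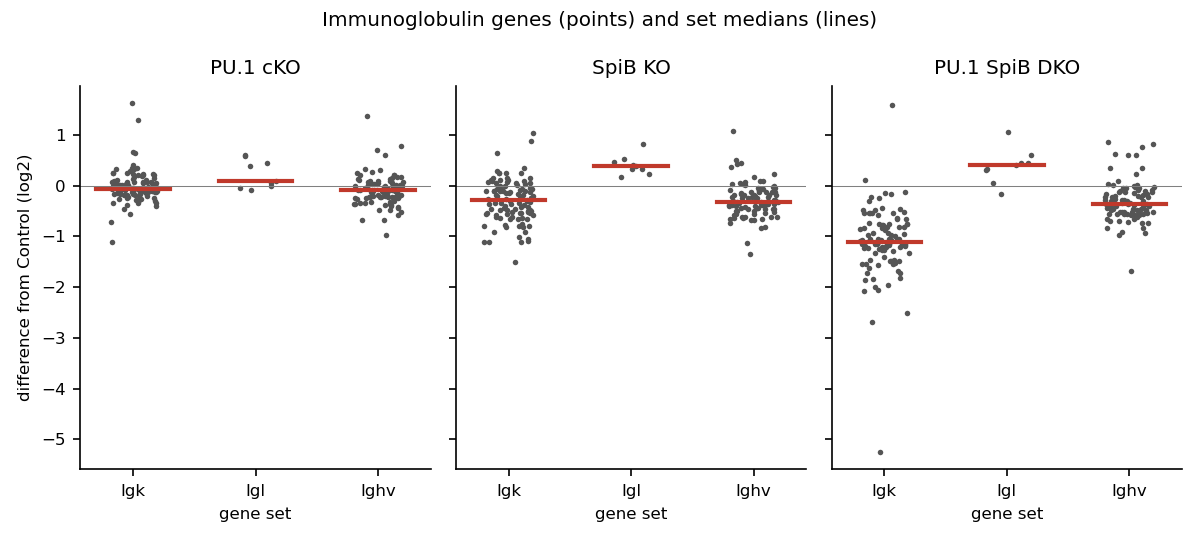
Log2 difference from Control for every tested Igk, Igl and Ighv gene (points) with the median of each set (line), in PU.1 cKO, SpiB KO and DKO. From left to right the Igk median is -0.06, -0.29 and -1.11, while the Igl and Ighv medians stay between -0.36 and 0.41.

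Outside the kappa locus, few of the genes that changed in DKO alone had a called departure. Of 2652 genes called in DKO, 1108 were called in neither single mutant, and 22 of these had a called interaction (5 above and 17 below the sum, 16 of the 17 in the kappa locus). Rnf144a, a RING-type ubiquitin ligase, was the remaining gene, at 215 and 231 CPM in Control, with 198 and 200.5 for SpiB KO, 237 and 256 for PU.1 cKO and 104 and 116 for DKO. Both DKO libraries were under the other 6 (interaction -1.0 ± 0.15, adjusted p = 0.0248, and 0.17 without PU.1 cKO 2). Kbtbd11, a Kelch and BTB domain protein, was at 169 and 190.1 CPM in Control, with 175 and 171 for SpiB KO, 274 and 286 for PU.1 cKO and 113 and 119 for DKO (interaction -1.22 ± 0.15, adjusted p = 0.00658). Its level rose with PU.1 loss alone and fell below Control with both. Pou2f1, the octamer-binding factor Oct-1, was at 97.5 and 95 CPM in Control, with 95.8 and 93.2 for SpiB KO, 125 and 127 for PU.1 cKO and 72.9 and 74.6 for DKO (interaction -0.74 ± 0.14, adjusted p = 0.0764). Its groups followed the order of Kbtbd11, but no pairwise difference from Control passed the fold threshold, and the call held in 2 of the 8 fits that left out a library. Fcer2a, which encodes CD23 and whose regulatory sequence drives the Cre transgene, was at 1317 and 1474 CPM in Control, with 438 and 461 for SpiB KO, 809.9 and 875 for PU.1 cKO and 153 and 197 for DKO. It fell in each mutant, most in DKO, and its departure of -0.63 ± 0.19 did not pass (adjusted p = 0.27; 0.0325 without the filter on low counts, 0.112 by DESeq2 and 0.0298 with a replicate block).

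Of the genes on the pathway lists, Spi1, Il6ra and Pirb were called. Over all genes 0.936% were called and 11.3% had an unadjusted p below 0.05. At a share of 0.936% most lists of this size hold no call, so 0 calls in a list is a description. Of 32 genes of B cell receptor and co-receptor signalling, 0 were called by edgeR (10 at an unadjusted p below 0.05, all positive; 4 by DESeq2, 0 by limma voom), with a median interaction of 0.28 against 0.00 over all genes. For this list 10 genes were called without Control 1 and 13 with a replicate block, fits that called 1041 and 1414 genes in all. Of 14 genes of MHC class II presentation, 0 were called (2 at an unadjusted p below 0.05, 1 by DESeq2, 0 by limma voom; median 0.07). Of 26 homing and adhesion genes, 0 were called (14, 6 and 0; 14 with a replicate block; median 0.23). Interactions were positive for 15 of the 26, and for 10 of the 14 at an unadjusted p below 0.05. Ccr7 at -0.64 (adjusted p = 0.277) and S1pr1 at -0.57 (adjusted p = 0.289) went the other way. Of 20 survival and death genes, 0 were called (4, 3 and 0; median 0.15). Of 25 cell cycle genes, 0 were called (8, 1 and 0; median 0.31), and Mki67, a proliferation marker, was at most 1.71 CPM. The same held for 16 ribosomal and translation genes (1, 0 and 0; median -0.34), 24 interferon-stimulated genes (3, 1 and 0; median -0.13) and 25 immediate early and stress genes (8, 2 and 0; median 0.08). Spi1 was the only call among 29 B cell transcription factors (median 0.19, with 8 at an unadjusted p below 0.05). Il6ra was the only call among 25 receptors for T cell help, BAFF and microbial ligands (median -0.02), and Pirb among 23 Fc and paired receptors (median 0.44). The replicate block called 11 of 16 ribosomal and translation genes, 10 of 25 immediate early and stress genes and 11 of 29 transcription factors. Apart from the B cell receptor and homing lists, each other list then had 3 or 4 calls.

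Of the marker genes, Sdc1, Bhlha15 and Zap70 were called, beside 0.936% of all genes tested. Of 12 follicular B cell markers, 0 were called (4 at an unadjusted p below 0.05, 4 by DESeq2, 0 by limma voom; median -0.10), and their sum was 16044 and 16732 CPM in Control, with 13610 and 13803 for SpiB KO, 15201 and 15897 for PU.1 cKO and 11977 and 11619 for DKO. Ms4a1, which encodes CD20, was at 2785 and 2424 CPM in Control, with 2326 and 2323 for SpiB KO, 2932 and 3091 for PU.1 cKO and 1723 and 1541 for DKO, with an interaction of -0.72 (adjusted p = 0.167). Of 12 markers of marginal zone and B-1 cells, 0 were called (5 at an unadjusted p below 0.05, 4 by DESeq2, 0 by limma voom; median 0.42). In DKO 9 of these markers were called higher than in Control (21.2% of all genes were called there, in either direction). Their sum was 627 and 581 CPM in Control, with 978 and 919 for SpiB KO, 709 and 661 for PU.1 cKO and 1400 and 1232 for DKO, and the part of such cells in the departures was not tested. Of 12 plasma cell markers, Sdc1 lay above and Bhlha15 below the sum (median 0.03). Zap70 was the only call among 13 T cell markers (median 0.37). None of 10 NK cell, 7 macrophage and monocyte or 3 erythroid markers was called by edgeR (1, 0 and 0 at an unadjusted p below 0.05, and likewise 1, 0 and 0 by DESeq2), and no neutrophil marker passed the filter on low counts.

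Called departures near the genes named in the design were counted beside the 0.936% called over all genes. Windows of this size hold few calls at that share, so low counts are a description. Within 5 Mb of Spi1, 46 genes were tested and Spi1 alone was called. Within 5 Mb of Spib 0 of 106 genes were called (8 at an unadjusted p below 0.05, 2 by DESeq2, 0 by limma voom), although 35 (33.0%) were called in SpiB KO and 40 (37.7%) in DKO, above the 9.62% and 21.2% of all genes. Within 5 Mb of Fcer2a 0 of 32 were called (2, 1 and 0). The Cre is a transgene, and its own position is not given in the sources used here.

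After culture the departures were only in part the same. With CD40L + IL-4, 109 of the 117 genes were tested, 86 had the same sign, 25 were called with the same sign, and Pld4 and Plekhm3 were called with the opposite sign (149 of 12721 genes called, 1.17%). With LPS + IL-4, 111 were tested, 84 had the same sign, 30 were called with the same sign and 0 with the opposite sign (184 of 12445 genes called, 1.48%). With a block for the replicate number, 50 were called with the same sign in LPS + IL-4 and 2 with the opposite sign, Dennd4a and Plek. Of the 12 H2 genes, 10 kept all PU.1 cKO libraries above all others, as given above, and H2-Q2 had a smaller departure with LPS + IL-4, at -4.61 against -7.56 in naive cells. The interaction of H2-K2 was -5.09 in naive cells, -5.05 with CD40L + IL-4 and -4.89 with LPS + IL-4. Gdpd3 stayed below the sum, at -8.70, -11.93 and -5.71, and Nfam1 above it, at 2.83, 3.16 and 2.61, although in LPS + IL-4 the call of Nfam1 did not pass (adjusted p = 0.303). Kbtbd11 departed further with CD40L + IL-4, by a called difference, at -1.22 in naive cells, -2.81 with CD40L + IL-4 and -1.73 with LPS + IL-4, as did Rnf144a, at -1.0, -2.17 and -1.13. For neither was the difference from LPS + IL-4 called. The kappa genes had a median interaction over 103 Igk genes of 0.12 after LPS + IL-4 and 0.09 after CD40L + IL-4. The difference from the naive interaction was called for 2 of the 19 against CD40L + IL-4, Igkv1-135 and Igkv17-121, and for 0 against LPS + IL-4. That comparison had no replicate block.

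The difference between the naive and the cultured interaction was called for 18 of the 117 genes against CD40L + IL-4 (103 of 13684 genes tested, 0.753%) and for 3 against LPS + IL-4 (13 genes, 0.095%). The 117 were chosen on the naive values, which favours a difference, so these counts are a description. The test had no replicate block, although the replicate numbers paired the LPS + IL-4 samples. Spi1 was among the 18: its interaction was 0.93 in naive cells and -0.56 with CD40L + IL-4, a difference of 1.49 (adjusted p = 0.0668). Gsn went from 1.68 to 0.48, Hpse from 1.64 to -0.79 and Lrrc16a from 2.01 to -0.34. The returning genes Gsn, Hpse, Lrrc16a, Lrrc25, Arhgap11a, Alcam and Plekhm3 thus stood nearer to or below the sum after culture with CD40L + IL-4.

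**Figure D5:**
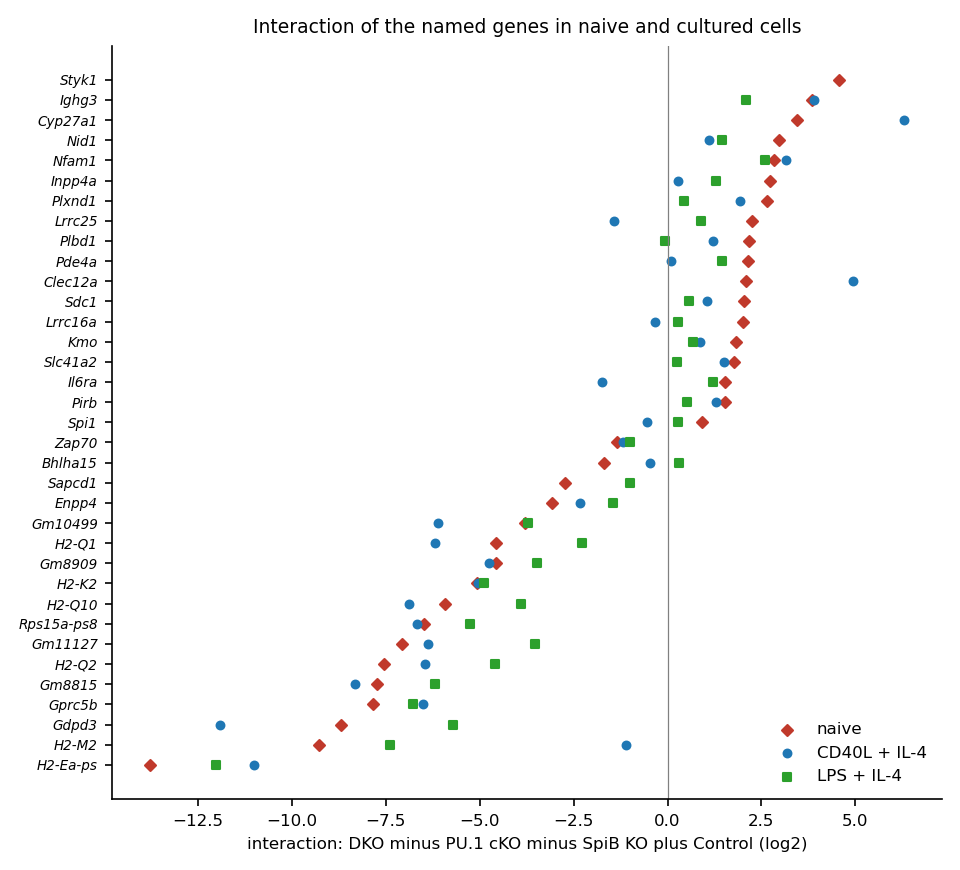
Interaction (log2) of the named genes with a called departure in naive cells, shown for naive cells (diamonds), CD40L + IL-4 (circles) and LPS + IL-4 (squares); a missing symbol means that the gene was not tested there. H2-K2 and Gm8909 keep nearly the same value in naive cells and with CD40L + IL-4, whereas Lrrc25 goes from 2.24 to -1.43 and Spi1 from 0.93 to -0.56.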

How the data were processed

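Per the labels and the methods, the authors aligned reads with Subread to GRCm38/mm10, kept uniquely mapped reads and deposited whole-number counts per RefSeq gene from featureCounts. Their deposited log2 RPKM values served only as a check: each of the 8 naive count columns correlated best with its own file. Entries without a symbol held 0.147% of naive counts. A minimum of 0.5 CPM in 2 or more libraries decided which genes were fitted in edgeR 4.0.16 (R 4.3.3; TMM, quasi-likelihood, 4 genotype means), and the interaction was called at a Benjamini-Hochberg adjusted p below 0.15, pairwise differences also at a fold above 1.5. DESeq2 1.42.0 and limma 3.58.1 were alternatives. CPM are TMM-scaled. The naive and cultured interactions were compared in 1 fit of 24 libraries without a replicate block. Scripts were tested on simulated data. Named were Spi1, Spib and Fcer2a, the 15 largest called departures in each direction with a mean of at least 2 CPM, and called genes on a list; other genes were chosen after their values were seen. Some genes are not reported here. Members and lists were chosen with earlier results of these data known. Replicates are separate biological samples per the methods.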

Additional observations from a re-analysis of the deposited data

Results flagged for a closer look

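The interaction differed between naive and cultured cells, by a test of the difference itself in edgeR over 24 libraries (adjusted p below 0.15), for the following genes; values are the naive minus the cultured interaction on the log2 scale. Against CD40L + IL-4, the departure was more positive in naive cells for Alcam (1.62), Arhgap11a (1.33), Ccdc88b (1.43), Fgd2 (2.71), Gsn (1.22), Hpse (2.44), Kbtbd11 (1.60), Lrrc16a (2.36), Lrrc25 (3.72), Ndrg1 (1.64), Pld4 (2.82), Plekhm3 (2.03), Rnf144a (1.18) and Spi1 (1.49). It was more negative in naive cells for Igkv1-135 (-1.25) and Igkv17-121 (-1.13). The fitted differences of Gatm (8.43) and Islr2 (7.07) rest on genotypes with almost no counts and depend on the prior count. For Kbtbd11, Rnf144a and Fgd2 both departures were below the sum, and larger in size in culture. Against LPS + IL-4, the difference was 1.80 for Ccdc88b, 1.56 for Plek and -2.93 for H2-Q2. The Spi1 interaction is itself in this set, and its part in the other differences was not tested.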

How the results depend on the processing

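The count of called departures moved with the processing. Each of the 117 genes kept its sign in every alternative that gave it a value. The genes were called on the same libraries, so this is a description. The median of all genes moved by less than 0.1. The counts (all, above, below the sum) were 1088, 797 and 291 without the filter on low counts, 436, 291 and 145 by DESeq2, 336, 213 and 123 when the 24 libraries shared 1 fit, and 41, 16 and 25 at adjusted p below 0.05. DESeq2 size factors gave 120, 60 and 60, limma voom 90, 40 and 50, and leaving out Rn45s, an alternative chosen after seeing the data, 117. Leaving out 1 library gave 35 to 1041 in all, 14 to 746 above and 20 to 295 below. With a replicate block the naive fit called 1414, 843 and 571. The numbers pair the naive samples only weakly (correlations of deviations 0.0918 to 0.25, 5 of 6 over 0.1), so they were not taken as pairs; in LPS + IL-4 all 6 were over 0.1 (0.386 to 0.514), and the replicate block called 1284 genes there and 52 of the naive 117, 50 with the same sign and 2 with the opposite sign. Of 588 values of the named genes under the alternatives, 496 kept their side of the threshold, 89 lost it, 3 gained it (all Fcer2a) and 0 reversed.

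With 2 libraries a genotype, the SE of the interaction had a median of 0.257, and departures much under 1 were mostly out of reach. For 16 called genes a genotype held under 20 counts, and their sizes are poorly fixed. The 51 upward calls with low PU.1 cKO fell to between 12 and 50 when a library was left out, and the 12 H2 calls to between 9 and 12.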
